A study of Caenorhabditis elegans with 8 samples.

Results

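Aging glp-1 adults were compared with young glp-1 adults on the 5 adult arrays of a series of 8, and gene families and tissues other than cuticle collagens, DNA repair and energy metabolism were examined. The aging adults (2 arrays) were at day 6 of adulthood and the young adults (3 arrays) at day 1. Both were Caenorhabditis elegans strain JK1107, genotype glp-1(q224) III, raised at 25°C on OP50 bacteria. Both groups carry the same allele, which at 25°C keeps germ cells from proliferating, so the RNA came mostly from somatic tissue, and there was no wild-type control. Each array measured the RNA of 1 large pool of worms, and low RNA recovery limited the aging adults to 2 pools. Nothing in the labels says that pools of a group came from separate cultures, so p-values measure the spread between these pools, which may be technical. The other 3 arrays held embryos and entered only the estimate of spread.

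The adult worm is built mostly of a large intestine, body wall muscle, a pharynx, an epidermis that secretes the cuticle, and a small nervous system. The intestine digests bacteria, stores fat, makes yolk, detoxifies foreign compounds and secretes antimicrobial proteins. Many of its genes are targets of the DAF-16 and SKN-1 transcription factors, which respond to insulin signaling and to oxidants. In bulk RNA, fewer cells of a type and less RNA per cell cannot be told apart.

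Values are multiples of the array median, and the noise level of an array is the 95th percentile of the size of its negative intensities. Array medians were 32.4 and 36.9 in aging adults and 19.1 to 21.9 in young adults, where the median lay below the noise level. Above noise were 8414 and 8442 genes in aging adults and 6751 to 7460 genes in young adults. Markers of the main adult tissues were detected: 10 of 10 intestinal, 5 of 5 body wall muscle, 5 of 6 pharyngeal, 5 of 6 epidermal and 7 of 8 neuronal markers were above noise on at least 2 adult arrays. Of the epidermal markers, dpy-7 and rol-6 were above noise only in young adults, and elt-1 only in aging adults. Precision is set by how few arrays there are.

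Young adult replicate 3 stood apart from the other young adults. In it 108 genes exceeded both other young adult arrays by over 4-fold, against 5 genes for replicate 1 and 11 for replicate 2, with values below noise raised to the noise level. They included defense and stress genes. The infection response gene irg-6 was at 132 and 61.4 in aging adults, and at 0.142, 0.000478 and 226 in young adults, the last of these being replicate 3. The C-type lectin clec-174 was at 121 and 72.8 in aging adults and at 2.148, 3.38 and 89.2 in young adults. The caenacin cnc-2, an antimicrobial peptide, was at 39.3 and 42.6 in aging adults, against 1.48, 0.94 and 32.4 in young adults. The heat-inducible chaperone hsp-70 was at 7.09 and 30.7 in aging adults, against 1.3, 1.95 and 50.7 in young adults. For these genes replicate 3 was close to or above the aging adults, and the other 2 young pools were below them. In the limma fit described below, the adjusted p of irg-6 was 0.346 with all arrays and 0.0322 without replicate 3. For hsp-70 these values were 0.611 and 0.0644. Some other results that rest on this array are given below with and without it, and what set it apart was not tested.

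**Figure D1:**
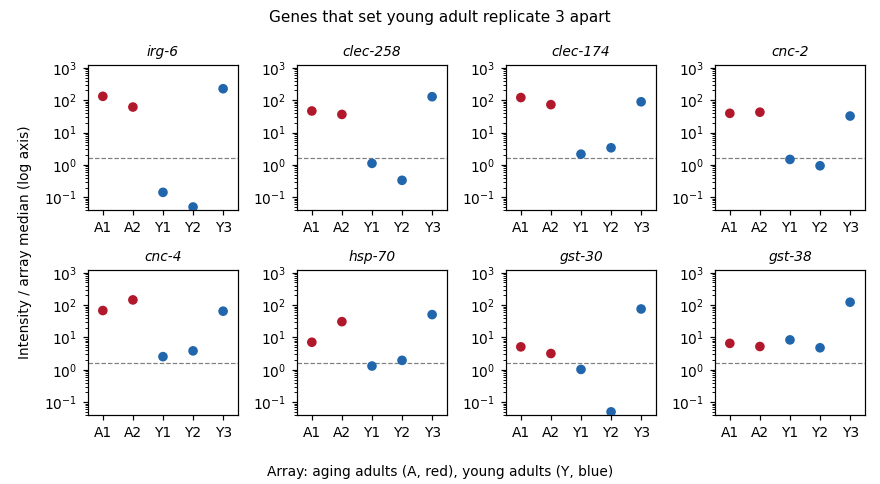
Intensity divided by the array median (log axis, values under 0.05 drawn at 0.05) of 8 genes on the 2 aging adult arrays (A, red) and the 3 young adult arrays (Y, blue), with the highest noise level of an adult array as a dashed line. Young adult replicate 3 (Y3) lies above the other young adult arrays for every gene shown, and the 8 genes were chosen for that.

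Of 17118 genes, 469 (2.74%) were higher and 760 (4.44%) lower in aging adults at an adjusted p under 0.05 (limma, Benjamini-Hochberg over all genes). Of these, 316 of the higher genes were above noise on both aging arrays and 623 of the lower genes on all 3 young arrays. In the other calls at least 1 array of the brighter group was within the noise. At an unadjusted p under 0.05 there were 1745 higher genes (10.2%) and 2367 lower genes (13.8%). On all 5 adult arrays 1000 genes were at the floor, so that their scaled values differed only through the array medians, which were higher in aging adults. None of these passed the test, but 441 of them had an unadjusted p under 0.05. Without young adult replicate 3 the calls were 1098 higher (6.41%) and 905 lower (5.29%), and without aging adult replicate 2 they were 221 (1.29%) and 373 (2.18%). Among the 8512 genes above noise on at least 2 adult arrays, 316 (3.71%) were higher and 644 (7.57%) lower. The scaling of the arrays moved these counts as well. The median log2 fold change of genes above noise on at least 2 adult arrays was 0.11 with median scaling, 0.09 after quantile normalization and 0.85 without rescaling. Quantile normalization called 507 higher (2.96%) and 621 lower (3.63%), and no rescaling 2723 higher (15.9%) and 326 lower (1.9%). For many gene groups the counts under the other scalings are therefore given too. Group counts with median scaling are to be read against the 2.74% higher and 4.44% lower of all genes. Those after quantile normalization are to be read against 2.96% and 3.63%, and those without rescaling against 15.9% and 1.9%. The fit pools its spread with the embryo arrays, and some genes failed the test although their 2 adult groups lay far apart.

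**Figure D2:**
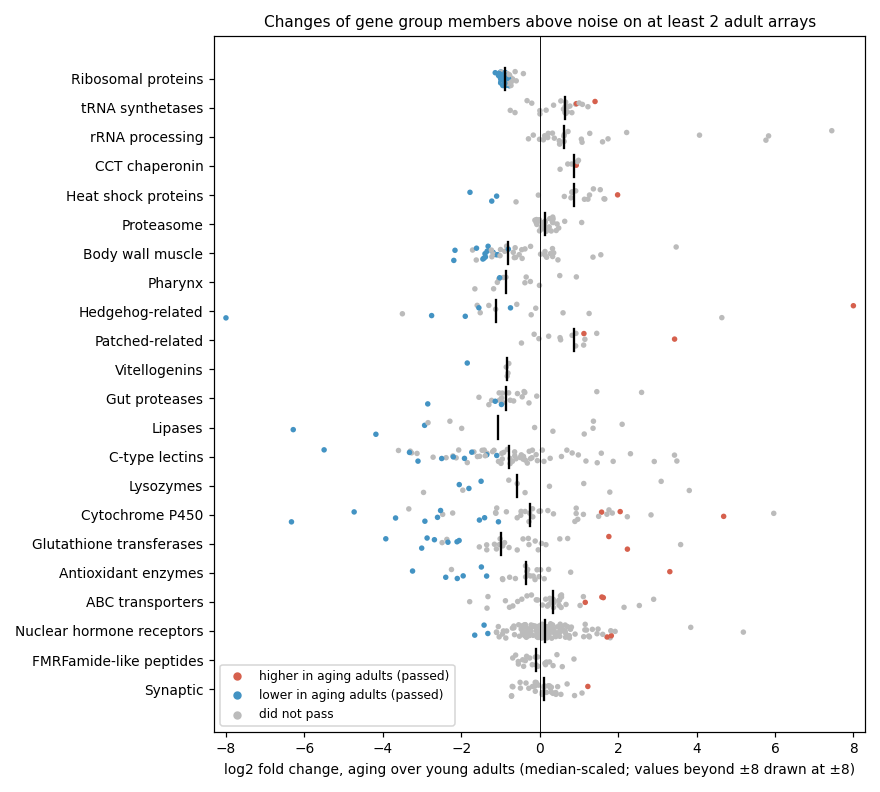
Log2 fold change of aging over young adults for group members above noise on at least 2 adult arrays, 1 point per gene, with the group median as a black bar, genes past the test in red (higher) or blue (lower), and values beyond 8 drawn at 8. Ribosomal proteins have a median of -0.87, glutathione transferases of -0.98 and aminoacyl-tRNA synthetases of 0.66.

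Among the large decreases in genes well above noise in young adults were genes of metabolism and defense. The acyl-CoA dehydrogenase acdh-1, an enzyme of branched-chain amino acid and propionate breakdown, was at 0.726 and 0.446 in aging adults and at 337, 94 and 93.2 in young adults. Both aging arrays were below noise, so the level was at least 157-fold lower in aging adults (adjusted p = 0.00109). The infection response gene irg-4 was at 7.02 and 2.04 in aging adults and at 189, 177 and 431 in young adults, a change of -6.01 ± 0.59 on the log2 scale (SE here and below, adjusted p = 0.00281). The daf-2-responsive gene pud-3 was at 4.37 and 0.955 in aging adults, against 240, 225 and 137 in young adults. Its relative pud-4 was at 10.7 and 3.39 in aging adults and at 200, 326 and 167 in young adults. All 4 genes kept the call whichever array was left out, although pud-3 lost it after quantile normalization (adjusted p = 0.093).

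Increases also involved single members of defense and detoxification families. The saposin-like gene spp-12, of a family of membrane-permeabilizing proteins, was at 230 and 199 in aging adults and at 1.69, 3.5 and 8.54 in young adults (5.85 ± 0.92 on the log2 scale, adjusted p = 0.0138). It lost the call without either aging array, at adjusted p of 0.075 and 0.0916, and after quantile normalization (0.13). The cytochrome P450 cyp-13B1 was at 9.59 and 25.2 in aging adults, against 0.592, 0.428 and 0.862 in young adults, at least 10.3-fold higher (adjusted p = 0.00275). The short-chain dehydrogenase dhs-5 was at 8.25 and 13.8 in aging adults and at 1.26, 1.4 and 1.43 in young adults (2.97 ± 0.29 on the log2 scale, or 2.80 with the 2 young values below noise raised to the noise level, adjusted p = 0.00287). Both kept the call whichever array was left out. Ranking by the fitted change alone picks other genes: bus-28, ama-1, bop-1, Y32B12C.1, F58H7.5, grl-21 and C27B7.7 had fitted log2 fold changes of 11.22 to 12.95, with every young adult array at the 0.01 floor. Their aging values were 0.929 to 4.39, and for bus-28, the highest of them, the level was at least 2.55-fold higher. F58H7.5 lost its call without 6 of the 8 arrays, with adjusted p up to 0.186.

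**Figure D3:**
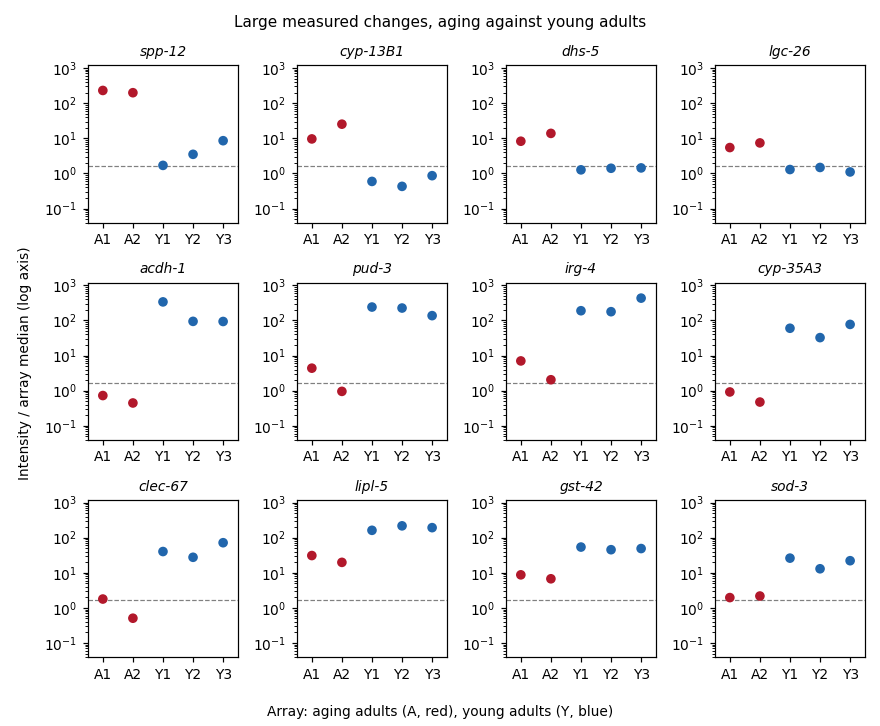
Intensity divided by the array median (log axis, values under 0.05 drawn at 0.05) of 12 genes on the 2 aging adult arrays (A, red) and the 3 young adult arrays (Y, blue), with the highest noise level of an adult array as a dashed line. The aging and young arrays do not overlap for any of the 12 genes, 4 higher and 8 lower in aging adults.

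Some genes outside the groups had large changes and were picked after their values were seen. The uncharacterized gene Y55B1BL.1 was at 27.3 and 37.5 in aging adults and at 3.77, 5.03 and 5.33 in young adults (adjusted p = 0.00273). The gene fcmt-1 was at 9.51 and 7.02 in aging adults, against 0.477, 0.753 and 0.711 in young adults, at least 5.4-fold higher. Among decreases, the tetraspanin tsp-10 was at 2.11 and 0.792 in aging adults and at 17.6, 21.6 and 12.7 in young adults (adjusted p = 0.00695). These 3 kept the call whichever array was left out.

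Some genes of fat breakdown and lipid transport fell. Of 24 lipase genes 3 were lower and 1 was higher within the noise (lipl-8), and 12 were above noise on at least 2 adult arrays. The lysosomal lipase lipl-5 was at 31 and 19.8 in aging adults and at 162, 217 and 193 in young adults (-2.93 ± 0.30 on the log2 scale, adjusted p = 0.00333). Its relative lipl-3 was at 0.248 and 0.0283 in aging adults, against 5.06, 13.2 and 4.18 in young adults, at least 7.15-fold lower. Both kept the call in every fit that left out 1 array. The lipid-binding proteins lbp-7 and lbp-5 were the only 2 of 9 lbp genes past the test. The transcript of lbp-7 was at 4.66 and 4.24 in aging adults and at 18.3, 25.1 and 26.3 in young adults (-2.37 ± 0.23 on the log2 scale, adjusted p = 0.00272). Of 15 desaturases and elongases, the fatty acid elongases elo-4 and elo-6 were lower and elo-7 was higher within the noise. The stearoyl-CoA desaturase fat-6 did not pass (211 and 146 in aging adults, 253, 339 and 343 in young adults, adjusted p = 0.154).

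Enzymes of acyl-CoA metabolism, which activate and oxidize fatty acids and branched carbon skeletons, had 4 of 52 higher and 6 lower, 6 and 3 after quantile normalization, and 16 and 2 with no rescaling. Besides acdh-1, the enoyl-CoA hydratase ech-6 was lower, at 13.64 and 10.98 in aging adults and at 243.2, 50.04 and 68.96 in young adults (adjusted p = 0.0379). It lost the call without 5 of the 8 arrays, with up to 0.186, and after quantile normalization (0.0644). The peroxisomal acyl-CoA oxidase acox-1.1 was higher, at 19.01 and 24.86 in aging adults, against 10.47, 5.249 and 7.64 in young adults (adjusted p = 0.0358), and lost the call without 6 arrays, with up to 0.186. Short-chain dehydrogenases, which act on steroids, retinoids and other lipids, had 2 of 30 higher and 5 lower, against 2.74% and 4.44% of all genes. The member dhs-20 was at 18.07 and 22.26 in aging adults and at 64.78, 60.67 and 74.72 in young adults (adjusted p = 0.00219). Like dhs-5, it passed whichever array was left out, and under all 3 scalings.

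Yolk and protease genes depended on the scaling. The 5 vitellogenin genes with values here, vit-1, vit-2, vit-4, vit-5 and vit-6, encode yolk proteins of the intestine. All 5 were lower on both aging arrays than on any young array, as were 27.5% of all genes, the 1000 genes at the floor included. Only vit-1 passed (adjusted p = 0.0412), and it lost the call without 6 of the 8 arrays, with up to 0.179. The gene vit-5 was at 411 and 458 in aging adults and at 803, 712 and 767 in young adults, with an adjusted p of 0.88 and a standard error of 2.34. When only the adult arrays and genes above noise on 2 of them were fitted, a choice made after the values were seen, all 5 passed, against 5.98% of the genes in that fit called lower and 1.45% called higher. The median log2 fold change of the 5 was -0.83 with median scaling, 0.06 after quantile normalization and -0.08 without rescaling. Of 26 gut proteases 3 were lower with median scaling and none after quantile normalization. The aspartyl protease asp-13 was at 37.4 and 14.3 in aging adults and at 193, 165 and 147 in young adults (adjusted p = 0.0126, and 0.06 after quantile normalization).

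**Figure D4:**
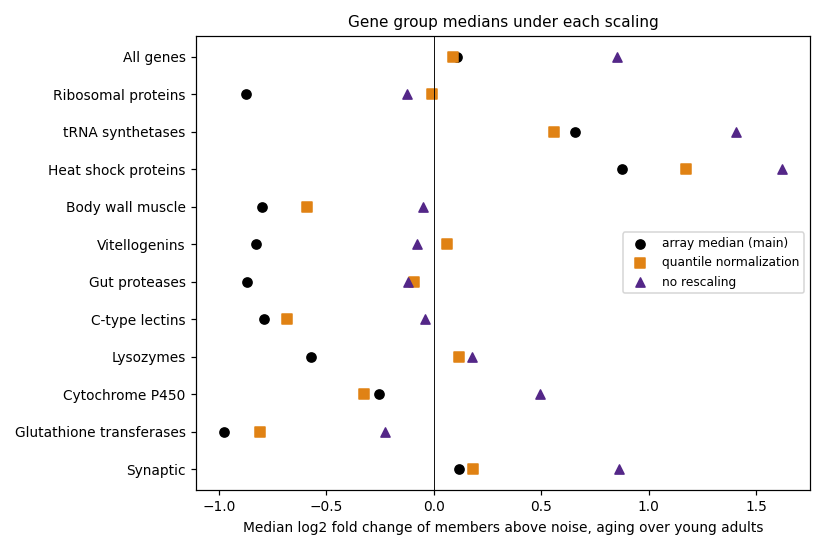
Median log2 fold change of aging over young adults for the members of each group above noise on at least 2 adult arrays, under division by the array median (circles), quantile normalization (squares) and no rescaling (triangles). Ribosomal proteins move from -0.87 to -0.01 and vitellogenins from -0.83 to 0.06 between median scaling and quantile normalization, while glutathione transferases stay at or below -0.23 under all 3.

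Calls on defense genes went in both directions. C-type lectins are a large family of sugar-binding proteins, many of which respond to infection. Of 220 lectin genes 3 were higher and 14 lower, against 2.74% and 4.44% of all genes. Of these calls 0 higher and 8 lower had the brighter group above noise throughout. After quantile normalization the counts were 3 and 8, and without young adult replicate 3 they were 9 and 18. The lectin clec-67 was at 1.79 and 0.509 in aging adults and at 40.3, 27.6 and 71.8 in young adults (-5.50 ± 0.61 on the log2 scale, or -5.08 with the 1 aging value below noise raised to the noise level, adjusted p = 0.00417). The lectin clec-53 was at 2.23 and 0.845 in aging adults, against 12.2, 17.1 and 12.4 in young adults. Both kept the call whichever array was left out. The lectin clec-258 showed the other pattern, at 46.4 and 36.3 in aging adults and at 1.12, 0.334 and 128 in young adults. It did not pass with all arrays (adjusted p = 0.41) and was higher in aging adults without young adult replicate 3 (0.0037).

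Some antimicrobial peptides were also high in young adult replicate 3. Among 30 of them 2 were higher and 4 lower with all arrays, and 7 were higher and 4 lower without that replicate, where 6.41% of all genes were called higher. The caenacin cnc-4 was at 67.7 and 144 in aging adults and at 2.54, 3.84 and 64.7 in young adults, with an adjusted p of 0.16 that became 0.003 without replicate 3. For cnc-2 the values were 0.18 and 0.0016. Epidermal nlp-29 was at 34.3 and 60.3 in aging adults and at 9.72, 13.8 and 37.2 in young adults (0.18, and 0.015 without replicate 3). Its relative nlp-33 fell instead, at 3.72 and 6.25 in aging adults and 18.6, 20.4 and 28.7 in young adults (adjusted p = 0.00768), and kept the call in every fit. Of 16 lysozymes, which digest bacterial walls, 3 were lower: ilys-5, lys-2 and lys-8. The first was at 152 and 79.9 in aging adults and at 473, 463 and 434 in young adults (adjusted p = 0.023). None of the 3 passed after quantile normalization (lowest adjusted p 0.092), and none without aging adult replicate 2.

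The saposin-like family held changes in both directions, with 1 of 18 higher and 2 lower. Against the increase of spp-12, spp-18 was at 2.716 and 4.473 in aging adults and at 20.9, 89.73 and 35.59 in young adults (adjusted p = 0.0162), and spp-8 was at 27.08 and 18.41 in aging adults and at 85.28, 204.1 and 143.4 in young adults (adjusted p = 0.0143). Neither kept the call in every fit, with adjusted p of 0.092 for spp-18 without aging adult replicate 1 and 0.113 for spp-8 without aging adult replicate 2. The secreted SCP/TAPS protein gene scl-24 was the 1 of 27 in its family past the test, at 15.36 and 52.21 in aging adults and at 0.748, 0.9061 and 2.672 in young adults (adjusted p = 0.0135, and 0.0975 without aging adult replicate 2).

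Detoxification enzymes moved in both directions. Among 73 cytochrome P450 genes, which oxidize foreign compounds and lipids, 4 were higher and 9 lower, against 2.74% and 4.44% of all genes. The counts were 4 and 8 after quantile normalization, and 7 and 5 with no rescaling. Of the xenobiotic-inducible cyp-35A subfamily, cyp-35A2, cyp-35A3, cyp-35A4 and cyp-35A5 were lower, as was cyp-35C1. The gene cyp-35A3 was at 0.918 and 0.474 in aging adults and at 59.8, 32.4 and 77 in young adults (-6.33 ± 0.49 on the log2 scale, or -5.86 with the 1 aging value below noise raised to the noise level, adjusted p = 0.00128). The gene cyp-35A4 was at 0.853 and 0.827 in aging adults, against 12, 5.75 and 17.8 in young adults, at least 11.7-fold lower. Only cyp-35A3 of this subfamily kept the call whichever array was left out. Without aging adult replicate 2 the adjusted p was 0.0559 for cyp-35A2, 0.0652 for cyp-35A4, 0.122 for cyp-35A5 and 0.19 for cyp-35C1. These genes are close in sequence, so probe sets may share signal. On the other side stood cyp-13B1, cyp-32A1 and cyp-33C8, the last at 23.5 and 26.7 in aging adults and 7.22, 7.2 and 11.3 in young adults (adjusted p = 0.00975, and 0.0784 without aging adult replicate 2). For cyp-32A1 the adjusted p without that replicate was 0.0681.

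Glutathione transferases, which conjugate electrophiles to glutathione, had 2 of 45 genes higher and 7 lower, and 2 and 8 after quantile normalization. Of all genes 2.74% were higher and 4.44% lower, and 2.96% and 3.63% after quantile normalization. The transferase gst-42, related to maleylacetoacetate isomerase of tyrosine breakdown, was at 8.74 and 6.75 in aging adults and at 54, 45.4 and 49 in young adults (-2.68 ± 0.20 on the log2 scale, adjusted p = 0.00121). The transferase gst-10 was at 16.4 and 5.46 in aging adults, against 166, 123 and 144 in young adults (adjusted p = 0.00412). Also lower was gst-20, at 3.11 and 3.81 in aging adults and 18.1, 40.7 and 28.7 in young adults. These 3 kept the call in every fit that left out 1 array. The 2 that rose were gsto-2, at 2.46 and 2.82 in aging adults and 0.69, 0.701 and 0.964 in young adults (adjusted p = 0.0403, and 0.186 without aging adult replicate 2), and gst-24, at 27.1 and 52.7 in aging adults and 10.5, 5.04 and 9.77 in young adults (adjusted p = 0.0225, and 0.147 without aging adult replicate 2). The SKN-1 reporter gene gst-4 was at 11.1 and 12.4 in aging adults and at 35.7, 7.39 and 39.3 in young adults, which overlapped.

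Mitochondrial antioxidant enzymes were among the decreases. Of 30 antioxidant genes 2 were higher and 6 lower, against 2.74% and 4.44% of all genes. The same counts held after quantile normalization. The manganese superoxide dismutase sod-3, a DAF-16 target, was at 1.97 and 2.18 in aging adults and at 26.1, 13 and 22.1 in young adults (-3.24 ± 0.31 on the log2 scale, adjusted p = 0.00258). The second manganese enzyme, sod-2, was at 5.16 and 6.4 in aging adults, against 19, 12.7 and 17.3 in young adults (adjusted p = 0.0137, and 0.0781 without aging adult replicate 1). The mitochondrial peroxiredoxin prdx-3 was at 10.2 and 10 in aging adults and at 48.8, 32.5 and 52 in young adults (adjusted p = 0.00336). The cytosolic copper-zinc enzyme sod-1 did not pass, at 83.9 and 62.4 in aging adults and 155, 102.9 and 170 in young adults (adjusted p = 0.11). Thioredoxin trx-3 rose, at 8.82 and 25.5 in aging adults against 0.965, 1.26 and 2.8 in young adults (adjusted p = 0.0213). It lost the call without 3 of the arrays, with 0.132 without aging adult replicate 2. The metallothioneins mtl-1 and mtl-2 did not pass (adjusted p = 0.282 and 0.713).

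Some genes known to respond to insulin signaling fell. Among 26 dod, pud and dct genes 0 were higher and 7 lower, with 4 lower after quantile normalization. Of all genes 4.44% were lower, and 3.63% after quantile normalization. The counts of 7 and 4 include dct-13, which was within the noise on every adult array. Besides pud-3 and pud-4, dod-22 was at 1.22 and 0.636 in aging adults and at 14.5, 19.9 and 31.3 in young adults (-4.57 ± 0.54 on the log2 scale, or -4.31 with the 1 aging value below noise raised to the noise level, adjusted p = 0.00525). Of 24 insulin-like peptide genes themselves none passed, against 2.74% of all genes higher and 4.44% lower, so 0 in a group of this size is near those shares. At an unadjusted p under 0.05 there were 0 higher and 1 lower, against 10.2% and 13.8% of all genes. The lower one, ins-34, was within the noise on every adult array.

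Among muscle genes, calls depended on the scaling. Of 44 body wall muscle genes 0 were higher and 13 lower, against 2.74% and 4.44% of all genes. With quantile normalization none passed in either direction. With no rescaling 5 passed as higher and 1 as lower, but 15.9% of all genes were then higher and 1.9% lower. The 13 lower genes were the troponins unc-27, tni-3, tnt-2, mup-2 and pat-10, tropomyosin lev-11, the myosin light chains mlc-1, mlc-2 and mlc-3, the attachment genes pat-6, unc-95 and dim-1, and calsequestrin csq-1, which binds calcium. Troponin T tnt-2 was at 56.8 and 38 in aging adults and at 262, 208 and 175 in young adults (-2.19 ± 0.28 on the log2 scale, adjusted p = 0.00671, and 0.093 after quantile normalization). Troponin I unc-27 was at 123 and 91.8 in aging adults, against 298, 267 and 306 in young adults. The regulatory light chain mlc-2 was at 115 and 94.6 in aging adults and at 278, 266 and 272 in young adults. These 3 alone kept the call whichever array was left out, and without aging adult replicate 2 only 3 of the group passed.

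The myosin heavy chains unc-54, myo-3 and myo-2 did not pass, and young adult replicate 3 was low for them. The major body wall heavy chain unc-54 was at 69.8 and 50.5 in aging adults and at 300, 233 and 86.5 in young adults (adjusted p = 0.11, and 0.0057 without that replicate). The paralog myo-3 was at 4.53 and 6.38 in aging adults and at 24.1, 23.4 and 9.65 in young adults (0.059, and 0.0039). Pharyngeal myosin myo-2 was at 4.74 and 4.09 in aging adults, against 12.5, 14 and 2.92 in young adults (0.5, and 0.037). Without young adult replicate 3, 20 body wall and 5 of 16 pharyngeal genes were lower, against 5.29% of all genes. Of the 5, phat-4 was above noise on only 1 adult array. With all arrays phat-3 was the only pharyngeal gene past the test, lower with an adjusted p of 0.0454. It lost the call whichever array was left out. The potassium channel twk-18 of body wall muscle fell under each scaling, at 2.52 and 2.21 in aging adults and 12.5, 9.69 and 9.65 in young adults (-2.16 ± 0.18 on the log2 scale, adjusted p = 0.0017).

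**Figure D5:**
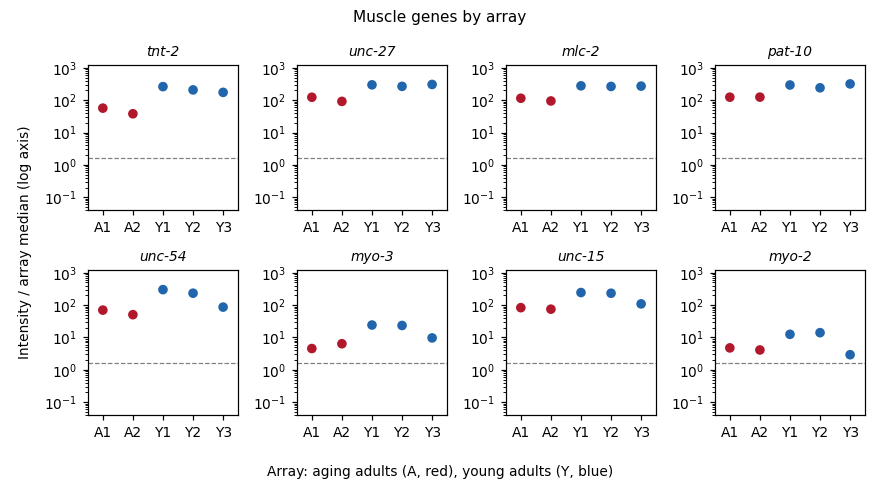
Intensity divided by the array median (log axis) of 8 muscle genes on the 2 aging adult arrays (A, red) and the 3 young adult arrays (Y, blue), with the highest noise level of an adult array as a dashed line. Young adult replicate 3 (Y3) is at the level of the other young adults for unc-27, mlc-2 and pat-10, and below them for unc-54, myo-3, unc-15 and myo-2.

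In the epidermis, genes of the hedgehog-related family, secreted proteins of cuticle-forming cells, had 6 of 54 lower and 1 higher, grl-21 described above, and 2 lower and 1 higher after quantile normalization. Of all genes 4.44% were lower and 2.74% higher. The gene grd-5 was at 23 and 11.9 in aging adults and at 70.7, 44.3 and 75 in young adults (adjusted p = 0.0312), and lost the call without 5 of the 8 arrays (highest 0.186, without aging adult replicate 2). The gene grd-3 was at 16.15 and 8.37 in aging adults and at 152, 111 and 135 in young adults but did not pass (adjusted p = 0.53). Its standard error was 2.93, and it passed when only adult arrays and genes above noise were fitted (0.008). Patched-related membrane proteins, which resemble hedgehog receptors, had 2 of 29 higher and 0 lower. The first was ptr-22, at 10.1 and 27.2 in aging adults and at 1.19, 1.2 and 2.5 in young adults (adjusted p = 0.0112, and 0.0621 without aging adult replicate 2). The second was ptc-1 (adjusted p = 0.0262, and 0.0567 after quantile normalization). Astacin proteases had 0 of 33 past the test (4 higher and 1 lower at an unadjusted p under 0.05), and after quantile normalization 1 was higher.

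Few neuronal genes passed, but only 2.74% of all genes were higher and 4.44% lower, so 0 in a small group is near those shares. At an unadjusted p under 0.05 the shares of all genes were 10.2% and 13.8%. Of 8 pan-neuronal markers none passed in limma, and none had an unadjusted p under 0.05. The synaptic vesicle gene snb-1 was at 68.4 and 83.8 in aging adults and at 54.9, 64.1 and 86 in young adults, which overlapped, and it alone of the 8 passed after quantile normalization (adjusted p = 0.0405). Among 25 FMRFamide-like peptide genes 0 passed in limma (0 higher and 2 lower at an unadjusted p under 0.05), and none passed after quantile normalization. Of those 2, flp-23 was at the floor on all 5 adult arrays, and flp-12 was at 13.4 and 11.3 in aging adults and at 13.9, 22.8 and 20.9 in young adults. Of 48 synaptic genes 1 was higher with median scaling, 2 after quantile normalization and 9 without rescaling. The call on syd-2, a scaffold of presynaptic sites, was lost without 7 of the arrays. Of the touch neuron genes only mec-7 passed, as lower, at 3.12 and 2.73 in aging adults and 5.24, 4.34 and 4.69 in young adults. Its adjusted p was 0.0454 (0.0583 after quantile normalization), and it lost the call without 6 of the arrays. Of 1211 chemoreceptor genes 16 were higher and 14 lower, against 2.74% and 4.44% of all genes. Only 38 of the 1211 were above noise on at least 2 adult arrays. Only srr-4, srh-237 and srh-307 among those calls had the brighter group above noise on all of its arrays. The ligand-gated channel lgc-34 was at 0.347 and 0.585 in aging adults and at 8.46, 6.98 and 5.83 in young adults, at least 7.67-fold lower (adjusted p = 0.00214).

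Germ line genes were mostly within the noise. Of 22 germ line and oocyte genes 7 were above noise on at least 2 adult arrays. Some of these were bright and did not pass the test. The gene perm-2 was at 219 and 246 in aging adults and at 259, 243 and 337 in young adults. For perm-4 the values were 260 and 289, against 311, 311 and 397. The gene cgh-1 was at 13.1 and 12.3 in aging adults and at 11.1, 8.81 and 8.6 in young adults. In aging adults 3 of the 22 were higher, against 2.74% of all genes. The germ line helicase glh-1 was at 1.21 and 2.07 in aging adults and at 0.0188, 0.0159 and 0.014 in young adults, at least 1.05-fold higher. The maternal RNA-binding gene pos-1 was at 2.35 and 2.51 in aging adults, against 0.000524, 0.0055 and 0.0153 in young adults, at least 1.61-fold higher. The call on pos-1 was lost without aging adult replicate 2 (0.0594), and that on mex-3 without 7 of the arrays. The level of mex-3 was 1.24 and 1.6 in aging adults and 0.549, 0.841 and 0.701 in young adults. With values below noise raised to the noise level its log2 fold change was -0.10, so no increase of mex-3 was measured. Major sperm protein genes summed to 31.7 and 32.2 in aging adults and to 71.9, 74.9 and 82.3 in young adults over 50 genes, of which 10 were above noise and 3 were lower. The sums include the members within the noise, and noise was a larger multiple of the array median in young adults. They therefore do not measure a decrease. Of the genes called lower, msp-64 was within the noise on every adult array. These genes are nearly identical in sequence, so the probe sets may share signal.

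The result for ribosomal proteins depended on the scaling. Of 75 cytosolic ribosomal protein genes 0 were higher and 52 lower with median scaling, and none passed after quantile normalization or without rescaling. Their median log2 fold change was -0.87, -0.01 and -0.12 under these 3 scalings. No call survived the removal of aging adult replicate 2. The gene rps-26 was at 172 and 192 in aging adults and at 392, 348 and 392 in young adults (adjusted p = 0.0166, and 0.55 after quantile normalization). Elongation factor eef-1A.1 was lower with median scaling (log2 fold change -0.76) and 0.16 after quantile normalization, where it did not pass. Aminoacyl-tRNA synthetases, which charge tRNAs with amino acids, had 4 of 33 higher with median scaling, 6 higher and 1 lower after quantile normalization, and 20 higher without rescaling. Of the 4, cars-2 and pars-2 were within the noise. Leucyl-tRNA synthetase lars-1 was at 27 and 29.6 in aging adults and at 8.3, 13.7 and 10.6 in young adults (adjusted p = 0.0133, and 0.1 without aging adult replicate 2).

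Chaperones moved in both directions. Of 22 heat shock genes 1 was higher and 3 lower with median scaling, and 4 higher and 1 lower after quantile normalization. Mitochondrial Hsp70, hsp-6, was at 6.83 and 9.98 in aging adults and at 3.39, 1.53 and 1.74 in young adults (adjusted p = 0.0228, and 0.161 without aging adult replicate 2). The small heat shock gene hsp-25 was at 60.3 and 48.7 in aging adults and at 120, 123 and 138 in young adults (adjusted p = 0.00639, and 0.14 after quantile normalization). The heat-inducible hsp-16.41 was at 12.1 and 28.5 in aging adults, against 1.31, 4.18 and 38.7 in young adults (0.5, and 0.049 without young adult replicate 3). In the CCT chaperonin, which folds actin and tubulin, all 6 members above noise on at least 2 adult arrays were higher on both aging arrays than on any young array, and 1 of 8 passed, cct-4, which lost the call without 7 of the 8 arrays. Non-overlap in that direction held for 17.2% of all genes. Of 33 proteasome subunits none passed in limma with median scaling (1 higher and 1 lower at an unadjusted p under 0.05) or after quantile normalization, and 11 were higher without rescaling.

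Among smaller tissues, genes of the excretory canal and coelomocytes had 3 of 19 higher and 0 lower under median scaling and after quantile normalization. The ligand-gated channel lgc-26 was at 5.44 and 7.38 in aging adults and at 1.29, 1.48 and 1.1 in young adults, at least 4.19-fold higher (adjusted p = 0.00326), and kept the call in every fit that left out 1 array. The guanine nucleotide exchange factor exc-5, which maintains the width of the excretory canal, was at 9.45 and 9.61 in aging adults and at 1.78, 3.17 and 1.36 in young adults (adjusted p = 0.0113). It lost the call without either aging array, with up to 0.0816. ABC transporters had 4 of 53 higher and 0 lower. Of these haf-2, a half-transporter, was at 14.5 and 23 in aging adults and at 5.94, 5.37 and 6.56 in young adults (adjusted p = 0.00756). In large regulatory families, 4 of 259 nuclear hormone receptors were higher and 3 lower, and 2 of 310 F-box genes were higher and 4 lower. Without young adult replicate 3 these counts were 13 and 4 for the receptors, and 18 and 6 for the F-box genes, against 6.41% of all genes higher and 5.29% lower. Among 40 transthyretin-related genes, which encode secreted proteins, 2 were higher and 1 lower. The one that fell, ttr-44, was at 67.21 and 28.66 in aging adults and at 167.3, 182 and 169.5 in young adults (adjusted p = 0.0209, and 0.165 after quantile normalization). Of 28 autophagy genes none passed in limma with median scaling (7 higher and 1 lower at an unadjusted p under 0.05, against 10.2% and 13.8% of all genes), 2 were higher after quantile normalization and 12 without rescaling. Of 30 ribosomal RNA processing genes none passed with median scaling or after quantile normalization (11 higher and 0 lower at an unadjusted p under 0.05, against the same shares of all genes), and 7 were higher without young adult replicate 3, where 6.41% of all genes were.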

How the data were processed

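The authors scanned 1 Affymetrix C. elegans array per pool and processed it with GCOS and Rosetta Resolver. Their deposited intensity values for 22548 probe sets are on a linear scale after background subtraction, and some are negative. A second deposited table, with the authors' own fold changes and p-values of 3 comparisons, was not used. A floor of 0.01 was applied, values were divided by the array median and log2 was taken. The platform annotation gave 1 gene for 20766 probe sets, several for 887 and none for 895. Probe sets with 1 gene were kept and summarized by their median, which gave 17118 genes, 2981 of them with more than 1 probe set.

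The 8 arrays, grouped by their labels, were fitted without covariates in limma 3.58.1 (R 4.3.3) with a variance trend, and p-values were adjusted by Benjamini-Hochberg over all genes. The procedure was tested on simulated data, but only for the 8512 genes above noise on at least 2 adult arrays, with normally distributed spread and no floor. That test therefore does not cover calls on genes at the floor or within the noise. The floor inflates fold changes of dim genes. Where no array of the dimmer group was above noise, the fold is therefore a bound, written "at least" and computed against the noise level (the 95th percentile of the sizes of an array's negative intensities).

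The members and lists were chosen with earlier results of these data known. By rule, the named genes were the 8 largest increases and 8 largest decreases, and up to 2 members of each list in each direction. They had to pass the test, with non-overlapping groups and the brighter group above noise on each of its arrays. Other genes were picked after their values were seen. Alternatives were quantile normalization, no rescaling, 75th percentile scaling, a pseudocount of 0.1, a floor at the noise level, the filter for genes above noise on 2 adult arrays, adult arrays only, a replicate block, the highest probe set, no _s_at or _x_at probe sets, no variance trend and each array left out. A fit of adult arrays with the noise filter was added after the data were seen. Sequences were not used here.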

Additional observations from a re-analysis of the deposited data

How the results depend on the processing

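Of 17118 genes, 469 were higher and 760 lower in aging adults. The counts of higher and lower genes were 2723 and 326 without rescaling, 1192 and 10292 with the floor raised to the noise level, 273 and 433 without _s_at and _x_at probe sets, 227 and 257 with only the adult arrays, and 275 and 450 without a variance trend. With only adult arrays and genes above noise on 2 of them, chosen after seeing the data, they were 123 and 509. With the floor raised to the noise level, genes within the noise on every adult array differ only through noise levels and array medians. The median log2 fold change over all genes was -0.73 in that setting, so its 10292 lower genes are not a count of measured decreases. Quantile normalization, 75th percentile scaling, a pseudocount of 0.1, the highest probe set and the noise filter kept both counts within 1.5 times. Leaving out 1 array gave 221 to 1098 higher genes and 373 to 905 lower genes, each lowest without aging adult replicate 2 and highest without young adult replicate 3. Of 111 named genes, 36 kept the call whichever array was left out, 75 lost it with only the adult arrays and 62 with the replicate block. Among the 75 was lipl-3 (adjusted p = 0.0666), which passed without any single array. Directions turned for 4 genes: grl-21 (-0.016) and C27B7.7 (-0.39) with the floor at the noise level, mec-7 (0.048) without rescaling and eef-1A.1 (0.16) after quantile normalization. Leaving out the rescaling shifts the log2 fold change of every gene by the same amount, which took mec-7 from -0.70 to 0.048. The raised floor replaced the young adult values of grl-21 and C27B7.7, all at the 0.01 floor, by the noise level. Why eef-1A.1 turned was not tested. The replicate block gave 172 higher and 338 lower genes. The labels give no pairing, and deviations of same-numbered aging and young arrays correlated at 0.0411 for replicate 1 and -0.00965 for replicate 2 across 8512 genes, so the numbers were not taken to pair the samples. Genes near the noise level, common in young adults, are measured least precisely.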
